A study of Mus musculus with 12 samples.

Results

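Mouse vascular smooth muscle cells (VSMC) labelled NR4A3KO at day 14 of culture were compared with VSMC labelled WT at day 1. The members are the 3 libraries with the knockout label in the day 14 count table and the 3 control libraries in the day 1 table, 6 of the 12 libraries of the series, over the 26706 gene names present in both tables. The KO day 14 libraries carry the genotype label NR4A3KO and the treatment label β-GP (beta-glycerophosphate, a phosphate donor used to drive mineral deposition in cultured cells). The WT day 1 libraries carry the genotype label WT and the treatment label none. Both groups came from aorta and are labelled primary cells, and the protocols give DMEM/F12 medium with 10% fetal bovine serum and 10 mM β-GP for every group, whatever the treatment label. The other 6 libraries, WT day 14 and KO day 1 with 3 each, are used for scale and for the spread between libraries. Genotype label, treatment label, day and count table all differ between the groups compared, and their effects cannot be told apart. The labels give neither the deleted part of the gene, nor the age or number of the animals, nor whether replicates were separate cultures, so a p-value here speaks of the scatter among libraries, and that scatter may be technical only.

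NR4A3 is a nuclear receptor without a known natural ligand, made within minutes to hours of many stimuli and acting as a transcription factor at the NBRE element together with its relatives NR4A1 and NR4A2. Smooth muscle cells of the vessel wall can lose contractile proteins in culture, and with high phosphate they can deposit mineral, a process held back by pyrophosphate and by inhibitors such as matrix Gla protein. The same cells respond to type I interferon, and to inflammatory signals, with large sets of induced genes.

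The targeted gene was higher, not lower, in the libraries with the knockout label. Nr4a3 stood at 34.3, 60.0 and 54.6 CPM (counts scaled to the library total) in KO day 14, against 4.58, 4.25 and 3.82 CPM in WT day 1. Every KO day 14 library was above every WT day 1 library (log2 fold change 3.55 ± 0.18 SE, edgeR adjusted p = 6.1e-10). The other groups averaged 239 CPM in WT day 14 and 2.10 CPM in KO day 1, so within each day the mean under the KO label was below that under the WT label. Across days the order was the opposite in the groups compared. Every direction given below is therefore one between these labels, and not one of absence against presence of Nr4a3 transcripts. Nr4a1 averaged 56.4 ± 18.5 CPM in KO day 14 and 53.6 ± 1.25 CPM in WT day 1 (SD, n = 3 each), a difference within the spread (log2 fold change 0.08, 95% interval -0.36 to 0.51). Nr4a2 averaged 60.8 ± 11.6 CPM in KO day 14 and 81.2 ± 1.18 CPM in WT day 1 (log2 fold change -0.42 ± 0.14, edgeR adjusted p = 0.0215), and this call was lost without KO day 14 replicate 1 (-0.41), without KO day 14 replicate 2 (-0.28) or without WT day 1 replicate 1 (-0.42).

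Library totals were 14336588 to 18753739 counts in KO day 14 and 24866419 to 30027439 counts in WT day 1, so low genes were counted more precisely in WT day 1. Mitochondrial transcripts took 4.42 to 4.81% of the counts in KO day 14 and 4.26 to 4.51% in WT day 1. On the first principal component of log2 CPM (47.6% of the variance) KO day 14 scored 64.5 to 66.1 and WT day 1 scored 52.3 to 53.2, while both other groups were below zero. On the second (29.3%) KO day 14 scored 59.5 to 63.4 and WT day 1 scored -68.7 to -67.8. The groups thus shared a side of the first component and stood at opposite ends of the second. The shared side chose the comparison and is given as a description. The correlation of log2 CPM between a KO day 14 and a WT day 1 library had a median of 0.936, against 0.992 within KO day 14 and 0.994 within WT day 1. Between KO day 1 and WT day 14 libraries the median was 0.974, against 0.982 within KO day 1 and 0.975 within WT day 14. WT day 14 was the least uniform group. These differently labelled groups were closer than any other pair of groups, but 1575 of 15956 genes differed between them (edgeR adjusted p below 0.05). An exchange of the group labels in 1 of the count tables cannot be told apart from the labels as given by the files used here, and under such an exchange a difference between KO and WT below would be one within a genotype.

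**Figure D1:**
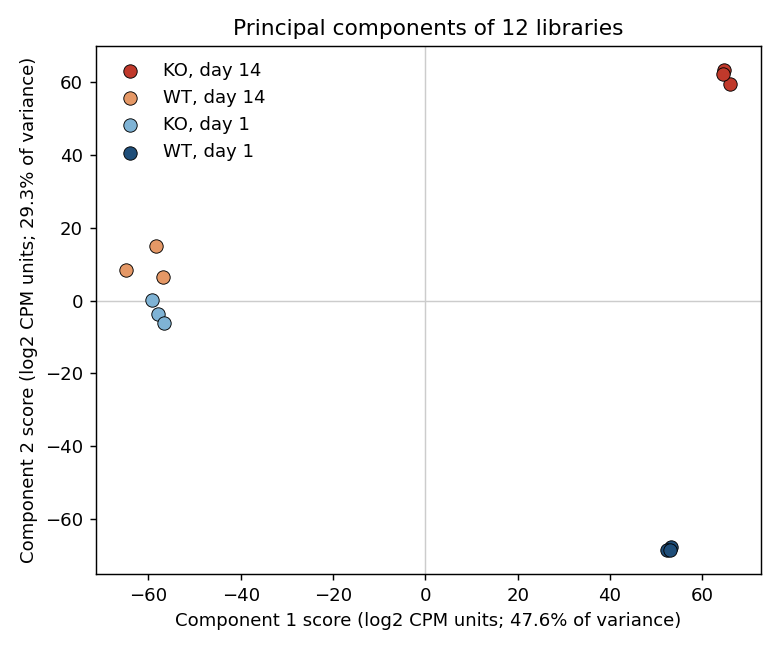
Scores of the 12 libraries on the first 2 principal components of log2 CPM, 1 point a library, coloured by group. KO day 14 (64.5 to 66.1) and WT day 1 (52.3 to 53.2) lie on the same side of component 1 and at opposite ends of component 2.

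Of 15956 genes tested, 8113 differed between KO day 14 and WT day 1, which is 50.8% (edgeR quasi-likelihood test, Benjamini-Hochberg adjusted p below 0.05). They were 4019 higher genes (25.2%) and 4094 lower genes (25.7%). Changes of at least 2-fold were found in 1341 higher genes (8.4%) and in 1423 lower genes (8.92%). For 5184 genes (32.5%) the 95% interval of the difference lay within 1.5-fold either way. Over all genes the median log2 fold change was -0.01. With the large share of genes called, a list of genes is read below against 25.2% and 25.7% and not against zero. Lack of overlap between the groups, where given, describes 3 libraries a group and adds no support to the test. Its share over all genes is not given here.

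In a fit of all 4 groups, the log2 fold change of KO day 14 over WT day 1 equals the sum of the average day effect (day 14 over day 1, mean of both genotypes) and the average genotype effect (KO over WT, mean of both days). Any change of the genotype effect between days cancels from it. The average day effect was called higher in 20.2% and lower in 20.7% of the genes, and the average genotype effect was called higher in 17.6% and lower in 19.2%. These averages share libraries with the comparison itself, so they divide its fold change and are no separate support for it. For Nr4a3 they were 5.19 and -1.63, of opposite sign. Among the genes with the largest rises and falls they had the same sign in each gene, as the plot of both parts shows. The parts differ by the log2 fold change of WT day 14 over KO day 1, the closest pair of groups. Genes chosen for a large sum are thus largely bound to have parts of the same sign. The shared sign is a description and no separate result on day or genotype.

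**Figure D2:**
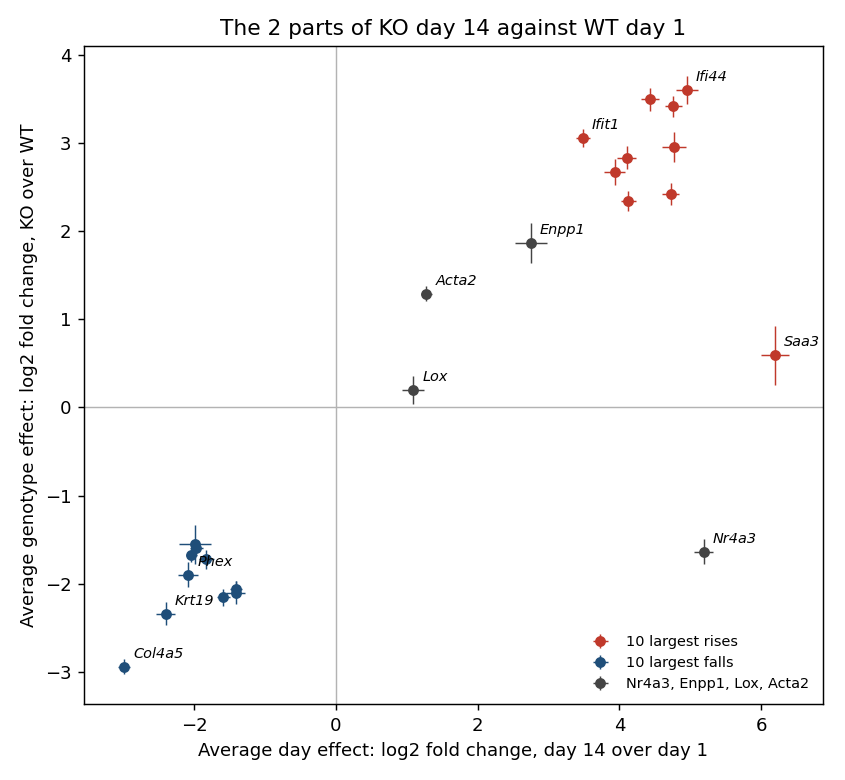
Average day effect (horizontal axis) and average genotype effect (vertical axis), both as log2 fold changes with standard errors, for the 10 largest rises, the 10 largest falls and 4 further genes. Their sum is the fold change of KO day 14 over WT day 1. Rises lie in the upper right and falls in the lower left, Saa3 has most of its rise in the day part (6.20 against 0.59), and Nr4a3 has parts of opposite sign (5.19 and -1.63).

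The 10 largest rises, among genes of moderate or higher level whose groups did not overlap, were Ifi44, Ifit3, Trim30a, Gbp3, Phf11d, Oasl2, Saa3, Gbp2b, Ifit1 and Gbp2, from 8.55 down to 6.47 on the log2 scale. Apart from Saa3, an acute phase protein, they are genes known to be induced by interferons, and 3 of them encode guanylate-binding proteins. Gbp2 and Gbp2b are close copies, and Trim30a and Phf11d belong to clusters of similar genes, so the split of reads among such copies is uncertain. The 10 largest falls were Col4a5, Krt19, Phex, Pak3, Klhl13, Pet2, Cystm1, Ogn, Tinagl1 and Tmem176a, from -5.93 to -3.46. They include a basement membrane collagen chain (Col4a5), an epithelial keratin (Krt19), a small proteoglycan (Ogn) and a protein kinase of the p21-activated family (Pak3).

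Col4a5 fell the most. It stood at 2.25, 2.11 and 2.27 CPM in KO day 14, against 136, 133 and 137 CPM in WT day 1 (log2 fold change -5.93 ± 0.14, edgeR adjusted p = 3.61e-13). Its levels in the other groups, 27.6 CPM in WT day 14 and 28.6 CPM in KO day 1, lay between. Col4a1, which encodes a chain of the common type IV collagen of basement membranes, went the other way, at 502 ± 28.4 CPM in KO day 14 and 299 ± 6.28 CPM in WT day 1 (log2 fold change 0.75 ± 0.12, edgeR adjusted p = 9.22e-05). Krt19 stood at 2.98, 2.96 and 1.84 CPM in KO day 14, against 70.3, 69.9 and 65.7 CPM in WT day 1.

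Interferon-induced genes were the most strongly raised list. All 32 tested members of the interferon response list were called higher and none lower, with a median log2 fold change of 5.05. KO day 14 was the highest and WT day 1 the lowest of the 4 groups for 19 of the 32. This was 59.4%, against 10.7% of all genes tested. Among genes called at least 2-fold higher, as all 32 were, the share was 46.3%. Much of this order thus goes with a large rise by itself. WT day 1 was the lowest for 31, against 4607 of all 15956 genes tested. It was the lowest for 936 of the 1341 genes called at least 2-fold higher. The median average day effect of the list was 3.37 and the median average genotype effect was 1.83.

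Promoters of 3 interferon-response genes are printed because the interferon-stimulated response element (ISRE), a site of interferon-activated transcription factors, was searched in the list. The sequences are from RefSeq (GRCm38.p6, not the mm9 build of the counts), 250 bases before to 50 after the gene start, 5′ to 3′ on the strand of the gene, with matches to the ISRE core, TTTC repeated after any 2 bases, on either strand in capitals. Oas1g is at chr5:120887564-120887863 (minus strand), Ifit3 at chr19:34583279-34583578 (plus strand) and Isg15 at chr4:156200769-156201068 (minus strand).
Oas1g: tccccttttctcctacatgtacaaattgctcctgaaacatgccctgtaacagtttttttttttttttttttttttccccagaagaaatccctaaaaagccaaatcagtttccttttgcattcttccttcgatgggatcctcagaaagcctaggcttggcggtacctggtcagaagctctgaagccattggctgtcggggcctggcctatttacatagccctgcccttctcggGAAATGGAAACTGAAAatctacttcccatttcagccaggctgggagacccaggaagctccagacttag
Ifit3: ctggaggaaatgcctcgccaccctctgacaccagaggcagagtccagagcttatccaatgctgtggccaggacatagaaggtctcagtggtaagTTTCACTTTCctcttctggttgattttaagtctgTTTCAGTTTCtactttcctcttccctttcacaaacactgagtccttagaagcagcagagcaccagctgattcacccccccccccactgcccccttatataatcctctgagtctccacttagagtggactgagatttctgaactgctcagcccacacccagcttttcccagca
Isg15: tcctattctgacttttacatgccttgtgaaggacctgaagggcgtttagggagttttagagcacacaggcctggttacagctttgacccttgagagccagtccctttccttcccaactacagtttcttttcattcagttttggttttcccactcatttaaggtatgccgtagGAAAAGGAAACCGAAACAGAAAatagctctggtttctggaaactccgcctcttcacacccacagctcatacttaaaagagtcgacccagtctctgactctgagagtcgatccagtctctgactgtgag
Of the 22 listed genes with a promoter in the table, 12 held the motif (54.5%), against 3.73% of all tested genes with a promoter and 3.44% of all 32851 promoters. The motif was found in 10.5% of genes called at least 2-fold higher and in 3.03% of genes called at least 2-fold lower. The ISRE was searched after the values were seen, matches may overlap, and a match is a description of letters and not of a bound site. The monomer site of NR4A receptors (NBRE, AAAGGTCA, either strand) was found in 1.35% of the genes called at least 2-fold higher and 1.01% of those called at least 2-fold lower, against 1.19% of all tested genes with a promoter.

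Ifit3, an RNA-binding antiviral protein, stood at 184, 218 and 273 CPM in KO day 14, against 0.999, 0.667 and 0.670 CPM in WT day 1 (log2 fold change 8.18 ± 0.20, edgeR adjusted p = 4.72e-13). Ifi44, an interferon-induced protein of less clear role, stood at 187, 252 and 277 CPM in KO day 14, against 0.749, 0.703 and 0.434 CPM in WT day 1. Isg15, a ubiquitin-like modifier, stood at 104, 133 and 133 CPM in KO day 14, against 3.79, 2.81 and 2.92 CPM in WT day 1 (log2 fold change 5.28 ± 0.19, edgeR adjusted p = 1.54e-11). In each of these genes the groups were far apart, and KO day 14 replicate 1 was the lowest of its group.

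Oas2 and Oas1g, which sense double-stranded RNA and activate RNase L or resemble the enzymes that do, were almost uncounted in WT day 1. Oas2 had 5860 counts in KO day 14 and 3 counts in WT day 1, a depth-adjusted ratio of 3095 (95% interval 1058 to 15010, counting error only). Oas1g had 1519 counts in KO day 14 and 1 count in WT day 1, a ratio of 2407 (431 to 95120), and it shares sequence with Oas1a. Members with the smallest changes were still called. Stat2, a subunit of the interferon-activated complex, averaged 185 ± 27.5 CPM in KO day 14 and 90.8 ± 2.21 CPM in WT day 1 (log2 fold change 1.03 ± 0.15, edgeR adjusted p = 3.47e-05). Irf7, a transcription factor that amplifies the response, averaged 102 ± 20.7 CPM in KO day 14 and 3.59 ± 0.287 CPM in WT day 1.

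KO day 14 did not lead the 4 groups in every member. Usp18, a protease that removes ISG15 and limits receptor signalling, averaged 39.3 CPM in KO day 14 and 0.147 CPM in WT day 1, with 87.5 CPM in WT day 14. Bst2, which tethers budding virions, averaged 229 CPM in KO day 14 and 9.96 CPM in WT day 1, with 351 CPM in WT day 14. Transcripts of Ifnb1, the gene of interferon beta, which was chosen after its values were seen, were counted 1, 0 and 3 times in KO day 14 and 0, 2 and 0 times in WT day 1. In WT day 14 they were counted 76, 120 and 113 times. At these counts no difference in Ifnb1 between KO day 14 and WT day 1 was detectable. Markers of leukocytes, which also carry interferon-induced genes, had a summed level of 50.2 to 54.2 CPM in KO day 14 and 59.7 to 65.2 CPM in WT day 1, with 2 of 4 tested members higher and 1 lower (median log2 fold change 0.60). The lower sum followed Cd14, an endotoxin co-receptor, at a mean of 18.7 CPM in KO day 14 and 40.7 CPM in WT day 1 (log2 fold change -1.12 ± 0.10, edgeR adjusted p = 4.79e-07). Csf1r, the receptor of a macrophage growth factor, rose to 2.80 ± 0.286 CPM in KO day 14, against 0.421 ± 0.0765 CPM in WT day 1, and the lysosomal gene Cd68 rose to 30.7 ± 1.94 CPM in KO day 14, against 21.8 ± 3.15 CPM in WT day 1. The Cd68 call (edgeR adjusted p = 0.0281) was lost without KO day 14 replicate 1 or 3 and without WT day 1 replicate 1 or 3 (log2 fold change 0.39 to 0.48). The pan-leukocyte gene Ptprc was counted 0, 0 and 1 times in KO day 14 and 0 times in each WT day 1 library.

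**Figure D3:**
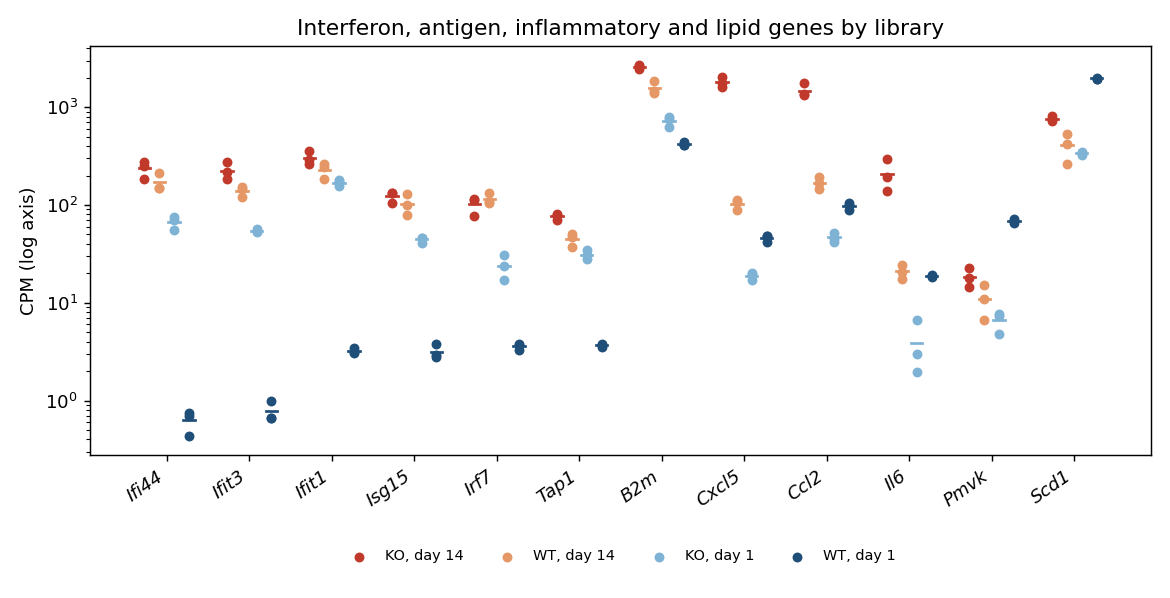
CPM (log axis) of 12 genes of the interferon, antigen, inflammatory and lipid lists in each of the 12 libraries, with group means as bars. For Ifi44, Ifit3 and Ifit1 WT day 1 lies far below the other groups, for Cxcl5, Ccl2 and Il6 KO day 14 lies far above them, and for Pmvk and Scd1 WT day 1 is the highest.

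Genes of class I antigen presentation rose in full. All 12 tested members were called higher (median log2 fold change 2.77). KO day 14 was the highest of the 4 groups for all 12, against 4687 of all 15956 genes tested. It was the highest for 1022 of the 1341 genes called at least 2-fold higher. B2m, the shared light chain of class I molecules, stood at 2736, 2435 and 2646 CPM in KO day 14, against 410, 441 and 414 CPM in WT day 1 (log2 fold change 2.63 ± 0.11, edgeR adjusted p = 1.13e-10). Tap1, which carries peptides into the endoplasmic reticulum, averaged 76.7 ± 5.69 CPM in KO day 14 and 3.67 ± 0.151 CPM in WT day 1. The immunoproteasome subunit gene Psmb9 had the largest change of the list, with 20.2 ± 1.16 CPM in KO day 14 and 0.217 ± 0.0954 CPM in WT day 1 (log2 fold change 6.49 ± 0.38, edgeR adjusted p = 3.74e-09). Nlrc5, a transactivator of class I genes, averaged 85.7 ± 3.04 CPM in KO day 14 and 8.10 ± 1.31 CPM in WT day 1. The smallest change was in H2-T23, a non-classical class I gene, with 161 ± 17.0 CPM in KO day 14 and 79.0 ± 4.13 CPM in WT day 1. Reads shared among the similar H2 genes make their single values uncertain. An ISRE match was found in the promoters of 3 of 10 members. It was also found in 4 of 17 ribosomal protein genes, a list of which 15 of 25 members fell.

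Inflammatory genes rose in 22 of 25 tested members and fell in 2, with a median log2 fold change of 2.68. Their median average day effect was 2.06, and their median average genotype effect was 0.51. The neutrophil chemoattractant gene Cxcl5 stood at 2020, 1603 and 1758 CPM in KO day 14, against 47.9, 42.3 and 47.8 CPM in WT day 1 (log2 fold change 5.29 ± 0.12, edgeR adjusted p = 3.61e-13). The monocyte chemoattractant gene Ccl2 averaged 1484 ± 245 CPM in KO day 14 and 98.0 ± 8.26 CPM in WT day 1. The eosinophil chemoattractant gene Ccl11 averaged 56.5 ± 6.03 CPM in KO day 14 and 0.490 ± 0.0943 CPM in WT day 1, with 0.693 CPM in WT day 14 and 0.648 CPM in KO day 1. In each of these genes the groups did not overlap.

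KO day 14 replicate 1 stood highest in several inflammatory genes in which the KO day 14 libraries differed among themselves. The cytokine gene Il6 stood at 297, 140 and 192 CPM in KO day 14, against 18.8, 19.3 and 18.4 CPM in WT day 1 (log2 fold change 3.48 ± 0.28, edgeR adjusted p = 1.36e-07). Saa3 stood at 571, 326 and 366 CPM in KO day 14, against 3.87, 3.58 and 3.98 CPM in WT day 1. Lcn2, an iron-siderophore-binding protein, stood at 125, 51.5 and 56.6 CPM in KO day 14, against 11.1, 8.92 and 8.51 CPM in WT day 1. Saa3 stayed called without any single library of the groups compared. Il33, an alarmin, fell to 356 ± 88.7 CPM in KO day 14, against 683 ± 11.6 CPM in WT day 1 (log2 fold change -0.94 ± 0.25, edgeR adjusted p = 0.00632). Cxcl12, a chemokine of stromal cells, also fell, to 0.402 CPM in KO day 14 against 1.33 CPM in WT day 1 (log2 fold change -1.75 ± 0.59, edgeR adjusted p = 0.0229), and lost its call in the fit without KO day 14 replicate 1, KO day 14 replicate 3, WT day 1 replicate 2 or WT day 1 replicate 3 (-1.81 to -1.42). Of 11 tested complement genes 7 rose and 2 fell, among them C3, the central component, at 373 ± 76.3 CPM in KO day 14 and 120 ± 5.21 CPM in WT day 1.

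**Figure D4:**
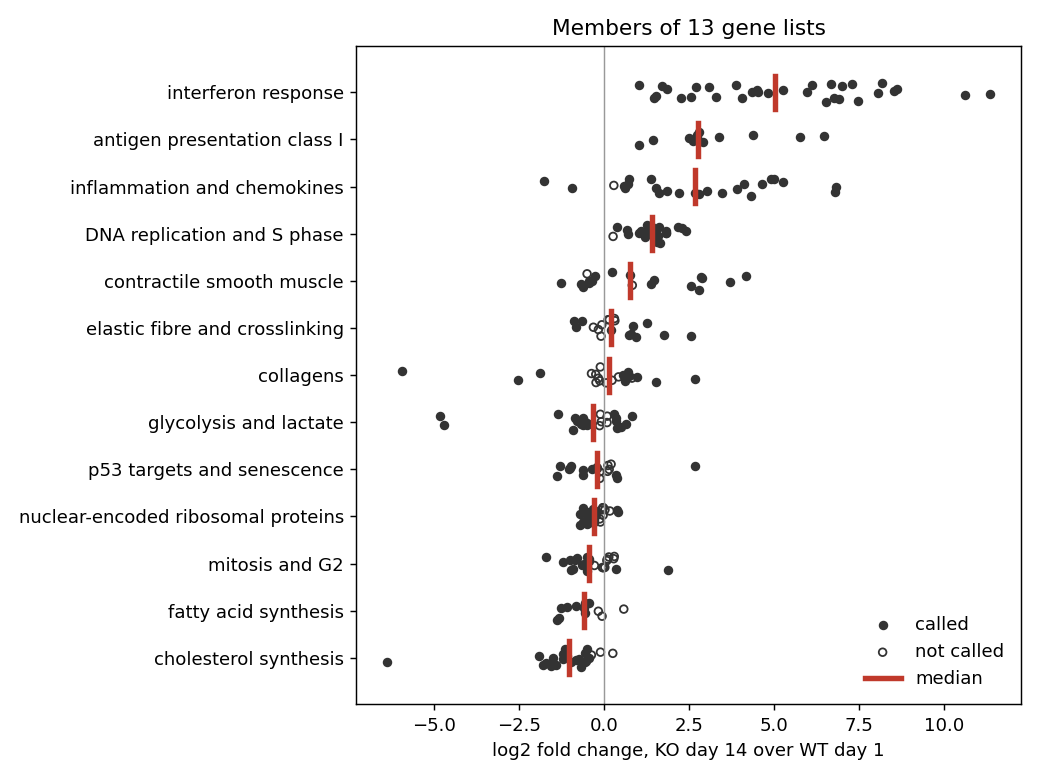
log2 fold change of KO day 14 over WT day 1 (horizontal axis) for the tested members of 13 gene lists, filled where called, with the list median as a red bar. The interferon list (median 5.05) lies wholly to the right, cholesterol synthesis (median -1.03) mostly to the left, and S phase and mitosis genes on different sides.

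Cell cycle genes divided by phase. Of 25 tested genes of DNA replication and S phase, 24 rose and none fell (median log2 fold change 1.43). KO day 14 was the highest group for all 25, against 4687 of all 15956 genes tested and 1022 of the 1341 called at least 2-fold higher. Of 25 genes of mitosis and G2, 2 rose and 14 fell (median -0.44). KO day 14 was the lowest and WT day 1 the highest group for 11 (44%, against 9.84% of all genes tested). Among genes called at least 2-fold lower this share was 39.7%. In Tpx2, Cenpe, Kif23 and Bub1b KO day 14 was the lowest only because WT day 14 replicate 1 was high. Tpx2 stood at 182, 183 and 167 CPM in KO day 14 and 262, 154 and 154 CPM in WT day 14. For the S phase list the medians of the average day effect and the average genotype effect were 0.72 and 0.71. Nearly equal parts mean that WT day 14 and KO day 1 were close in these genes. They do not show separate effects of day and genotype.

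The E2F element, the site of the factors that open the S phase programme, was searched in the same promoters after the values were seen, as TTTGGCGC, TTTCCCGC or TTTCGCGC on either strand. The promoters of Cdc6, which loads the replicative helicase, of the helicase subunit gene Mcm3 and of the polymerase alpha gene Pola1 are printed to show these matches in capitals. Cdc6 is at chr11:98907901-98908200 (plus strand), Mcm3 at chr1:20820263-20820562 (minus strand) and Pola1 at chrX:93632106-93632405 (minus strand), all RefSeq, GRCm38.p6.
Cdc6: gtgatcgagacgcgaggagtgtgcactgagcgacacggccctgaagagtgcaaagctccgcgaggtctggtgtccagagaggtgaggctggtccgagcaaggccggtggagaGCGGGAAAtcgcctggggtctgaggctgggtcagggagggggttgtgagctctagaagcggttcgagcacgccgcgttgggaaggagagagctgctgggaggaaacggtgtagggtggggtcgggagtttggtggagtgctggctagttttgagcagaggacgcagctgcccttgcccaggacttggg
Mcm3: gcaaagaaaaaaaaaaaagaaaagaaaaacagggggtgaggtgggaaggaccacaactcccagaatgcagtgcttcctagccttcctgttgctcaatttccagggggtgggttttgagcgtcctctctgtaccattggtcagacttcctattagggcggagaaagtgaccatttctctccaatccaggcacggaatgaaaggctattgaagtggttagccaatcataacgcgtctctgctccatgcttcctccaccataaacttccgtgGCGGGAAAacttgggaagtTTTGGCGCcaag
Pola1: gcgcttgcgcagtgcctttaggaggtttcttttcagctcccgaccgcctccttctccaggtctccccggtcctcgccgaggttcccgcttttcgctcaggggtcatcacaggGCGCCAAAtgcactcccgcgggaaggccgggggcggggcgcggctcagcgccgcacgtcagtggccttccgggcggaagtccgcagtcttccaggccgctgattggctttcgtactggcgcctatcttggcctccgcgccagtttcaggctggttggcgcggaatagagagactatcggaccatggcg
Of 19 listed S phase genes with a promoter, 10 held the motif (52.6%), against 3.88% of all tested genes with a promoter and 1.84% of all promoters. Of 20 mitosis genes, 1 held it. The motif was found in 4.95% of genes called at least 2-fold higher and in 2.25% of those called at least 2-fold lower. The S phase list gathers genes of the programme that these factors open, so its share describes the list.

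Cdc6 stood at 40.7, 48.4 and 41.1 CPM in KO day 14, against 11.2, 7.03 and 8.08 CPM in WT day 1 (log2 fold change 2.31 ± 0.27, edgeR adjusted p = 5.83e-06). Ccne2, a cyclin of S phase entry, stood at 44.2, 41.2 and 36.5 CPM in KO day 14, against 8.82, 6.64 and 7.29 CPM in WT day 1 (log2 fold change 2.42 ± 0.24, edgeR adjusted p = 9.28e-07). Mcm3 averaged 169 ± 12.8 CPM in KO day 14 and 47.9 ± 4.20 CPM in WT day 1, and Pola1 averaged 102 ± 7.41 CPM in KO day 14 and 39.2 ± 1.42 CPM in WT day 1. No library of either group reached the other in these genes. E2f1, itself a regulator of the programme, averaged 53.8 ± 0.563 CPM in KO day 14 and 17.9 ± 1.01 CPM in WT day 1. E2f2 was the member without a call (log2 fold change 0.28, 95% interval -0.21 to 0.77).

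Ccnb2, a cyclin of entry into mitosis, stood at 25.1, 27.5 and 25.4 CPM in KO day 14, against 81.2, 82.2 and 87.5 CPM in WT day 1 (log2 fold change -1.69 ± 0.09, edgeR adjusted p = 1.26e-09). Ube2c, an enzyme of the anaphase-promoting pathway, averaged 54.5 ± 4.74 CPM in KO day 14 and 125 ± 3.39 CPM in WT day 1. The proliferation marker Mki67 averaged 423 ± 45.4 CPM in KO day 14 and 413 ± 25.5 CPM in WT day 1 (log2 fold change 0.03, 95% interval -0.37 to 0.44). The mitotic kinase gene Cdk1 averaged 127 ± 9.56 CPM in KO day 14 and 119 ± 3.93 CPM in WT day 1 (log2 fold change 0.09, 95% interval -0.18 to 0.37). Both intervals lie within 1.5-fold. The 2 mitosis-list genes that rose were Mybl2 (log2 fold change 1.90 ± 0.21, edgeR adjusted p = 3.9e-06) and Foxm1 (0.36 ± 0.12, edgeR adjusted p = 0.0243), both transcription factors of the cycle. Foxm1 lost its call in the fits without KO day 14 replicate 2 or 3 and without WT day 1 replicate 1, 2 or 3 (0.29 to 0.35).

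**Figure D5:**
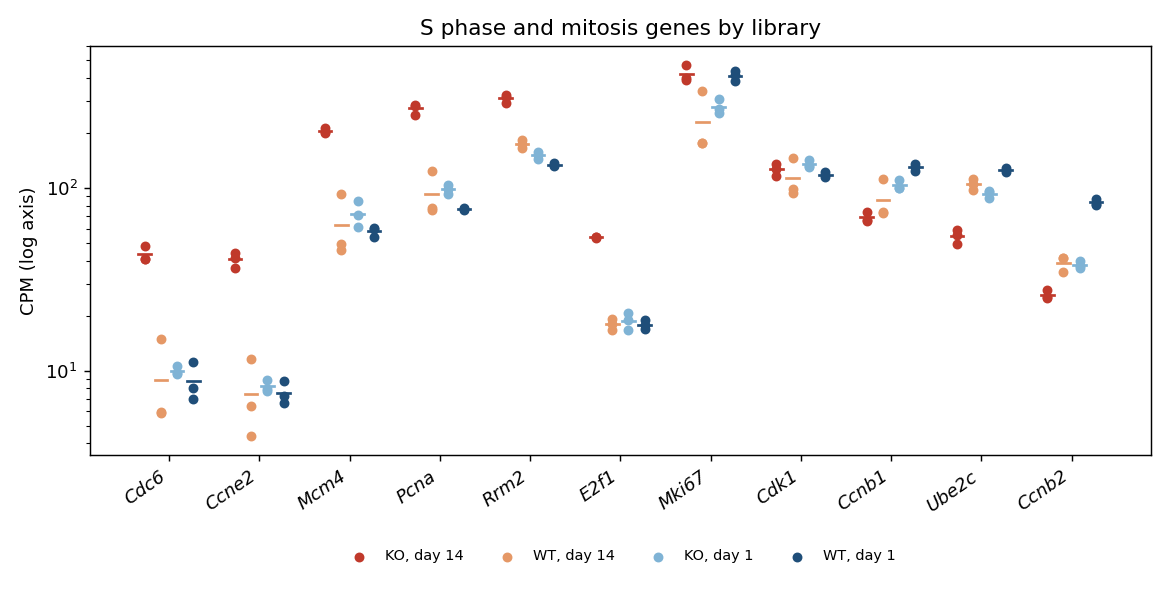
CPM (log axis) of 6 S phase genes and 5 genes of proliferation and mitosis in each of the 12 libraries, with group means as bars. KO day 14 is the highest group for Cdc6, Ccne2, Mcm4, Pcna, Rrm2 and E2f1, and the lowest for Ccnb1, Ube2c and Ccnb2.

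Lipid synthesis genes were lower. Of 24 tested cholesterol synthesis genes none rose and 21 fell (median log2 fold change -1.03). WT day 1 was the highest of the 4 groups for 23, against 4336 of all 15956 genes tested. Most of the difference lay in the average genotype effect (median -0.82), with a median average day effect of -0.18. Pmvk, the phosphomevalonate kinase of the pathway, stood at 22.8, 18.1 and 14.6 CPM in KO day 14, against 72.5, 69.0 and 65.5 CPM in WT day 1 (log2 fold change -1.90 ± 0.23, edgeR adjusted p = 7.18e-06). The groups did not overlap. Srebf2, the transcription factor of the pathway, averaged 346 ± 9.42 CPM in KO day 14 and 545 ± 11.0 CPM in WT day 1. Hsd17b7, an enzyme of a late step, was the only member with a positive log2 fold change, 0.27, which was not called (edgeR adjusted p = 0.0582).

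Of 12 genes of fatty acid synthesis none rose and 9 fell (median log2 fold change -0.57). Scd1, the stearoyl-CoA desaturase, averaged 761 ± 43.2 CPM in KO day 14 and 1969 ± 39.4 CPM in WT day 1 (log2 fold change -1.37 ± 0.17, edgeR adjusted p = 8.41e-06). Elovl6, a fatty acid elongase, averaged 67.2 ± 6.12 CPM in KO day 14 and 166 ± 2.02 CPM in WT day 1. Among 10 genes of cholesterol efflux and its LXR receptors 3 rose and 5 fell. The efflux pump gene Abca1 stood at 8.64, 11.6 and 14.8 CPM in KO day 14, against 65.8, 66.7 and 67.5 CPM in WT day 1 (log2 fold change -2.50 ± 0.23, edgeR adjusted p = 4.47e-07). Apoe, a lipoprotein that accepts cholesterol, went the other way, at 26.5 ± 2.92 CPM in KO day 14 and 2.81 ± 0.345 CPM in WT day 1. So did Ch25h, which makes 25-hydroxycholesterol and is known to respond to interferon, at 25.4 ± 3.28 CPM in KO day 14 and 3.24 ± 0.177 CPM in WT day 1. Lpl, the lipoprotein lipase, averaged 1078 ± 95.4 CPM in KO day 14 and 104 ± 7.50 CPM in WT day 1. It makes up most of the summed adipocyte markers, 1007 to 1178 CPM in KO day 14 and 116 to 131 CPM in WT day 1, of which 3 of 4 tested members rose. Adipoq, which defines adipocytes, had 1 count in KO day 14 and 0 in WT day 1. The part of adipocyte-like cells in these values was not tested, and in bulk RNA fewer cells of a type and less RNA per cell cannot be told apart.

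Calcification genes moved both ways. Of 12 tested osteogenic and chondrogenic genes 4 rose and 4 fell, of 12 calcification inhibitors 4 rose and 3 fell, and of 8 phosphate-handling genes 2 rose and 2 fell. Over both directions 8 of 12, 7 of 12 and 4 of 8 members of these lists were called, against 50.8% of all genes tested. Enpp1, which makes the mineralization inhibitor pyrophosphate, stood at 239, 229 and 224 CPM in KO day 14, against 9.66, 8.99 and 9.54 CPM in WT day 1 (log2 fold change 4.62 ± 0.29, edgeR adjusted p = 7.92e-09). It was also low in WT day 14 (7.59 CPM) and KO day 1 (4.06 CPM), so KO day 14 stood alone. Other genes connected with pyrophosphate, none of which form a list here, went both ways. Alpl, whose enzyme breaks pyrophosphate down, rose and is described below with the osteogenic genes. Ank, which exports pyrophosphate or its precursor ATP, fell and averaged 254 ± 5.59 CPM in KO day 14 and 429 ± 1.79 CPM in WT day 1. Nt5e, which makes adenosine from AMP, also fell and averaged 9.10 ± 2.11 CPM in KO day 14 and 48.5 ± 1.86 CPM in WT day 1.

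Phex, an endopeptidase of bone cells that is linked to phosphate balance, stood at 6.33, 5.99 and 6.80 CPM in KO day 14, against 93.7, 108 and 101 CPM in WT day 1 (log2 fold change -3.98 ± 0.17, edgeR adjusted p = 1.07e-10). Spp1 (osteopontin), a matrix phosphoprotein that restrains mineral growth, averaged 3132 ± 191 CPM in KO day 14 and 1225 ± 60.9 CPM in WT day 1 (log2 fold change 1.35 ± 0.11, edgeR adjusted p = 1.14e-07). Mgp, matrix Gla protein, averaged 41.0 ± 4.95 CPM in KO day 14 and 24.2 ± 2.15 CPM in WT day 1. Spp1 averaged 496 CPM in WT day 14 and 543 CPM in KO day 1, below both groups compared. Runx2, the osteoblast transcription factor, fell to 88.8 ± 2.47 CPM in KO day 14, against 147 ± 7.83 CPM in WT day 1 (log2 fold change -0.73 ± 0.14, edgeR adjusted p = 5.27e-04).

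Bmp4, an osteogenic ligand, averaged 6.62 ± 1.00 CPM in KO day 14 and 32.4 ± 1.89 CPM in WT day 1. Sox9, the cartilage factor, averaged 14.6 ± 0.697 CPM in KO day 14 and 20.9 ± 0.416 CPM in WT day 1 and was not called (log2 fold change -0.52, edgeR adjusted p = 0.0547), but it was called with DESeq2, with size factors of the DESeq2 kind, with either other filter, in the fit of the 6 libraries alone and without WT day 14 replicate 1. Alpl, the alkaline phosphatase of mineralizing cells, had 52 counts in KO day 14 and 3 in WT day 1, a depth-adjusted ratio of 27.5 (95% interval 8.89 to 137), and averaged 14.4 CPM in WT day 14. The phosphate transporter gene Slc20a1 stood at 98.0 ± 11.2 CPM in KO day 14 and 102 ± 2.32 CPM in WT day 1 (log2 fold change -0.06, 95% interval -0.27 to 0.15). Its relative Slc20a2 rose to 94.2 ± 2.50 CPM in KO day 14, against 59.7 ± 1.43 CPM in WT day 1.

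Smooth muscle genes did not move as 1 set. Of 19 tested contractile genes 10 rose and 7 fell (median log2 fold change 0.78). Acta2, smooth muscle actin, stood at 1595, 1829 and 1458 CPM in KO day 14, against 253, 281 and 290 CPM in WT day 1 (log2 fold change 2.57 ± 0.12, edgeR adjusted p = 2.04e-10). Actg2, enteric smooth muscle actin, averaged 27.5 ± 5.07 CPM in KO day 14 and 2.08 ± 0.104 CPM in WT day 1, and Lmod1, an actin nucleator of smooth muscle, averaged 11.3 ± 0.912 CPM in KO day 14 and 0.623 ± 0.115 CPM in WT day 1. Smtn (smoothelin) fell to 52.3 ± 0.363 CPM in KO day 14, against 125 ± 6.11 CPM in WT day 1. Several markers that define contractile cells were near zero in both groups. Myh11, smooth muscle myosin, had 8 counts in KO day 14 and 7 in WT day 1, Tagln, an actin-binding protein, had 11 in KO day 14 and 2 in WT day 1, and Myocd, the coactivator of the programme, had 2 in KO day 14 and 0 in WT day 1. How reads that fit more than 1 gene were counted is not given, and Gapdh too was at only 29.4 CPM in KO day 14 and 41.5 CPM in WT day 1, so low levels here are not read as absence.

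Markers of other cells also differed. The summed pericyte markers were 603 to 710 CPM in KO day 14 and 319 to 341 CPM in WT day 1, while 3 of 7 tested members rose and 1 fell (median log2 fold change -0.13). The higher sum followed Pdgfrb alone, a growth factor receptor of mural cells. Pdgfrb averaged 439 ± 39.9 CPM in KO day 14 and 59.6 ± 3.65 CPM in WT day 1 (log2 fold change 2.88 ± 0.18, edgeR adjusted p = 6.25e-09). It averaged 73.9 CPM in WT day 14 and 52.3 CPM in KO day 1. Cspg4, the NG2 proteoglycan, fell to 16.1 ± 0.126 CPM in KO day 14, against 31.9 ± 2.43 CPM in WT day 1. The summed mesothelial and epithelial markers were 81.3 to 84.7 CPM in KO day 14 and 399 to 407 CPM in WT day 1, and 4 of 5 tested members fell. They include Krt19 and Msln (mesothelin), with Msln at 77.0 ± 1.72 CPM in KO day 14 and 332 ± 6.78 CPM in WT day 1. Epcam, which defines epithelium, had 0 counts in KO day 14 and 1 in WT day 1. Summed endothelial markers were 7.24 to 8.67 CPM in KO day 14 and 20.4 to 22.0 CPM in WT day 1. Of 5 tested members 2 fell and 3 were not called (median log2 fold change -0.14). The part of such cells in the other differences was not tested.

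Matrix genes were also split. Of 20 collagens 7 rose, 3 fell and 10 were not called. Of all genes tested 50.8% were called, so this count is no result about collagens. Col3a1, a fibrillar collagen chain, averaged 3687 ± 364 CPM in KO day 14 and 4308 ± 81.5 CPM in WT day 1, which did not pass the test (log2 fold change -0.22, 95% interval -0.54 to 0.09). Col1a1 fell to 39.6 ± 6.58 CPM in KO day 14, against 144 ± 10.8 CPM in WT day 1. Lox, which cross-links collagen and elastin, averaged 2267 ± 51.7 CPM in KO day 14 and 928 ± 33.4 CPM in WT day 1 (log2 fold change 1.29 ± 0.22, edgeR adjusted p = 1.99e-04), and both groups were far above WT day 14 (217 CPM) and KO day 1 (117 CPM).

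Of 23 matrix proteases and inhibitors 13 rose and 7 fell. The gelatinase gene Mmp9 stood at 28.1, 19.0 and 22.1 CPM in KO day 14, against 0.666, 1.19 and 1.06 CPM in WT day 1 (log2 fold change 4.55 ± 0.31, edgeR adjusted p = 1.51e-08). Timp3, a protease inhibitor bound to the matrix, fell to 50.8 ± 9.08 CPM in KO day 14, against 280 ± 5.61 CPM in WT day 1 (log2 fold change -2.46 ± 0.11, edgeR adjusted p = 1.92e-10). Of 30 genes of TGF-beta and BMP signalling 14 rose and 5 fell, among them Acvrl1, a type I receptor, at 38.2 ± 2.50 CPM in KO day 14 and 2.78 ± 0.361 CPM in WT day 1.

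Some genes were closer between KO day 14 and WT day 1 than either was to the other groups, whether or not they differed in the comparison itself. The rule used here takes the 4 largest positive and 4 largest negative changes of the genotype effect between days, a change called in 60.1% of the genes, so these values describe the chosen genes. Stc1, a hormone of calcium and phosphate balance, stood at 87.9, 45.7 and 82.9 CPM in KO day 14, against 69.3, 76.8 and 80.6 CPM in WT day 1, with 2.81 CPM in WT day 14 and 1.56 CPM in KO day 1. The groups overlapped (log2 fold change -0.06, 95% interval -0.62 to 0.49). Fmo2, a flavin monooxygenase, averaged 10.1 ± 0.679 CPM in KO day 14 and 8.23 ± 0.250 CPM in WT day 1, with 268 CPM in WT day 14 and 187 CPM in KO day 1, and was not called (0.30, 95% interval -0.30 to 0.91). Calcrl, a receptor of the CGRP family, averaged 62.9 ± 2.74 CPM in KO day 14 and 43.5 ± 2.16 CPM in WT day 1, with 2.62 CPM in WT day 14 and 3.37 CPM in KO day 1, and was called (0.53 ± 0.13, edgeR adjusted p = 0.00351). Yap1, the Hippo pathway coactivator, was named by another part of the rule. It fell and averaged 622 ± 33.9 CPM in KO day 14 and 960 ± 36.8 CPM in WT day 1 (log2 fold change -0.63 ± 0.08, edgeR adjusted p = 8.85e-06). In WT day 14 it averaged 4532 CPM and in KO day 1 3833 CPM. The fall was not particular to Yap1, since 5 of 6 tested genes in the list of Yap1 and its neighbours fell and 1 rose. The neighbour Tmem123 stood at 660, 602 and 638 CPM in KO day 14 and 1375, 1395 and 1397 CPM in WT day 1. Its levels were 3109, 3023 and 3316 CPM in WT day 14 and 3489, 3291 and 3715 CPM in KO day 1.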

How the data were processed

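RNA of 12 libraries was measured with TRIzol extraction and the NEBNext Ultra kit, per the labels' protocols. The authors deposited raw counts by gene name, with a separate table for day 1 and day 14. The submitters' processing notes name the build mm9. Aligner, counter, annotation and strand setting were not given in the sources used here. Columns headed CTR were read as WT. Repeated identical lines (43 and 53 in the day 1 and day 14 tables) and 27 names a table written as dates were left out, and 98.3% of the 26706 shared names are in GENCODE M21.

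Counts were tested with edgeR 4.0.16 in R 4.3.3 on all 12 libraries in 4 groups (TMM, filterByExpr, quasi-likelihood F test, Benjamini-Hochberg adjustment, called below 0.05). CPM is relative to the scaled library total, and SE is the log2 fold change divided by the root of F. With 1 to 3 counts in a group, a ratio of counts with an exact 95% binomial interval is given. The test was first run on simulated data. Named genes are the 10 largest rises and falls (mean log2 CPM of at least 3, groups not overlapping, predicted genes passed over), genes of calcification, smooth muscle and glycolysis, at most 2 called members of each list in each direction, the 4 largest changes of the genotype effect in each direction, and all NR4A receptors and neighbours of Yap1. Other genes were named after their values were seen. Some genes that the rule takes are in the tests and counts but not reported here. Members and lists were chosen with earlier results of these data known.

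Alternatives were other normalizations, DESeq2 1.42.0, limma-voom (limma 3.58.1), other filters, the 6 libraries alone, a replicate block and leaving out libraries.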

Additional observations from a re-analysis of the deposited data

How the results depend on the processing

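The count of genes called was 8110 with size factors of the DESeq2 kind, 8128 with library size alone, 8277 with DESeq2, 8112 with limma-voom, 7875 with no filter, 7890 with a filter of 1 CPM in 3 libraries, 10348 in the fit of the 6 libraries compared, and 9412 without WT day 14 replicate 1. Leaving out each KO day 14 or WT day 1 library in turn gave 6865 to 7153. The share of higher genes among the calls was 49.5%, and 53.5% with library size alone. Of 174 named genes, 159 kept their direction and their side of the threshold in all 15 settings. Over the fits that leave out 1 library of the groups compared, Stc1 ranged from -0.23 to 0.18 (without KO day 14 replicate 2) and Nr4a1 from -0.22 (without KO day 14 replicate 3) to 0.25, never called, and the cause was not tested. Ldha (0.25 to 0.33), Mfap5 (-0.87 to -0.73) and Slc17a5 (-0.34 to -0.27) lost their calls without single libraries.

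The numbers of the replicates did not pair the libraries. Deviations of same-numbered KO day 14 and WT day 1 libraries correlated at 0.025 to 0.028 only, although each library correlated best with its own number. A replicate block gave 8020 genes called.

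Depth limits the genes with few counts in WT day 1 or KO day 14, such as Oas2 and Alpl, whose ratios have wide intervals.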

Other observations

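Glycolysis and stress genes moved both ways. Of 26 glycolysis and lactate genes 8 rose and 13 fell, with the hexokinase gene Hk2 at 146 ± 10.2 CPM in KO day 14 and 111 ± 6.46 CPM in WT day 1 (log2 fold change 0.40 ± 0.10, edgeR adjusted p = 0.00469) and the aldolase gene Aldoa at 1007 ± 66.5 CPM in KO day 14 and 1604 ± 68.8 CPM in WT day 1 (-0.67 ± 0.12, edgeR adjusted p = 2.36e-04). Of 25 ribosomal protein genes 2 rose and 15 fell (median log2 fold change -0.27). KO day 14 was the lowest of the 4 groups for 21, against 4960 of all 15956 genes tested. Of 19 p53 target genes 3 rose and 9 fell, while the death receptor gene Fas rose by 2.69. Of 19 antioxidant genes 10 rose and 4 fell, led by the mitochondrial superoxide dismutase gene Sod2 at 379 ± 22.8 CPM in KO day 14 and 56.9 ± 1.54 CPM in WT day 1. In the unfolded protein and integrated stress list 6 of 23 genes rose, among them the chaperone gene Calr at 1051 ± 24.9 CPM in KO day 14 and 470.3 ± 18.9 CPM in WT day 1, and 11 fell, among them the serine synthesis gene Phgdh at 131 ± 6.61 CPM in KO day 14 and 411 ± 20.4 CPM in WT day 1.

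Of the 10 largest falls, 4 were on chromosome X in RefSeq (Col4a5, Phex, Pak3 and Klhl13), and none of the 10 largest rises was. On chromosome X, 63 of 526 tested genes (12%) were called at least 2-fold lower, against 8.92% of all genes tested. The share was 14% on chromosome 6, 11.9% on chromosomes 3 and 13 and 11.5% on chromosome 10, so X did not stand apart. Median log2 fold changes of single chromosomes ranged from -0.26 (chromosome 3) to 0.25 (chromosome 18). These shares are a description with no test. Xist, the transcript of the inactive X, stood at 2412 ± 105 CPM in KO day 14 and 1703 ± 53.5 CPM in WT day 1, and the Y-linked gene Ddx3y was counted 0 times in KO day 14 and 1 time in WT day 1.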
